A study of Mus musculus with 23 samples.

Results

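Cirbp and Rbm3, the genes of the cold-inducible RNA-binding proteins CIRBP and RBM3, were followed through microglia of the mouse striatum during methamphetamine taking and after it. They are 2 of the 35976 genes of the deposited count table, and both were among the 16121 genes that passed the filter on low counts. Male C57BL/6J mice, 9 weeks old per the protocol, gave themselves intravenous infusions in 15 daily sessions of 2 hr. The Saline group (n = 8) received saline and the Maintenance group (n = 8) received methamphetamine at 0.05 mg/kg per infusion, and microglia of both were isolated directly after the last session. The Abstinence group (n = 7) took the same dose of methamphetamine over the same sessions and then spent 21 days in the home cage without drug before isolation. All 23 libraries carry the same treatment label, which names methamphetamine self-administration also for the Saline group, so groups were taken from the group label. No saline group was kept through the 21 days, so drug history, age and time in the home cage cannot be told apart when Abstinence is compared with Saline. The labels do not state the hour of isolation, body temperature or whether each library came from 1 animal, and p-values measure the spread between these libraries.

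CIRBP and RBM3 are small proteins with 1 RNA-recognition motif and a glycine-rich tail. Mild cooling raises their transcripts and warming lowers them, through transcription and through temperature-dependent splicing that decides how much of the message is stable, and heat-shock chaperones move the other way with temperature. In the brain RBM3 is known for supporting local translation and synapse recovery after cooling, CIRBP for binding clock gene transcripts, and CIRBP released from cells for acting on Toll-like receptor 4 of microglia and other macrophages.

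In GRCm38, the build in the submitters' processing notes, Cirbp lies on chromosome 10, 80165990 to 80172786, plus strand, and Rbm3 lies on chromosome X, 8138975 to 8145880, minus strand. GENCODE lists 7 transcripts of Cirbp, 4 of them with a retained intron, and 11 of Rbm3, 6 of them protein coding. The deposited counts pool all transcripts of a gene, so a change of splicing cannot be seen in them.

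RefSeq promoter windows for GRCm38.p6 (250 bases before to 50 after a start site) held 2 windows for Cirbp. The window at chr10:80167589-80167888, plus strand, is shown because it holds the letters TCCCCGCC, known as the mild cold response element of this gene and bound by the transcription factor SP1. Capitals mark that element and each GC box, GGGCGG, on either strand.
Cirbp window: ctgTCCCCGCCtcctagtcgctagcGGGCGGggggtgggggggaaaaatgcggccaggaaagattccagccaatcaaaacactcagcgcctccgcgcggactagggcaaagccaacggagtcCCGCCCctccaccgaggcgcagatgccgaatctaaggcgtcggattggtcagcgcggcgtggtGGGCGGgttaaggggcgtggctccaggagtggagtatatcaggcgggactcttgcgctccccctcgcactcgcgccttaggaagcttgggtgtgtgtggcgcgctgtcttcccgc
The element began 247 bases before the start site on the plus strand, and 5.38% of the 32851 windows of the table held it on either strand. GC boxes began at -225, -128 and -65, the one at -128 on the minus strand, and 35.7% of all windows held at least 1. The other Cirbp window held 4 GC boxes and no TCCCCGCC. Neither window held the cAMP response element TGACGTCA (1.79% of all windows), the E-box CACGTG (7.15%) or the heat shock element core GAANNTTC (7.86%), each searched on both strands. The GC box and the mild cold response element did not overlap in the printed window. These matches describe letters and not binding.

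Library totals ran from 54970954 to 94827095 counts. The lowest count of a member in any library was 1321 for Cirbp and 2417 for Rbm3, for which counting error alone is 2.75% and 2.03%, well under the spread between libraries. All 10 microglial markers were tested and none passed in either comparison with Saline; in Maintenance 9 of 10 had a negative fold change. Their summed level was 39806 to 63472 CPM (counts per 1000000 counts of the library, scaled by edgeR's TMM factors), lowest in Maintenance 8. That library also held 70542 CPM of choroid plexus and ependymal markers, against 107 CPM in the Maintenance library with the fewest. Maintenance 6 and Maintenance 7 had the fewest genes with any count, 12459 and 12740, against 14727 to 17034 in the other libraries.

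Cirbp, chosen for its lower counts in this comparison, was lower at the end of methamphetamine taking than after saline. Its level in Saline was 53.3 CPM at the lowest, 76.7 at the median and 95.9 at the highest (75.4 ± 14.7 CPM, SD, n = 8). In Maintenance it was 21.8 CPM at the lowest, 31.4 at the median and 50.6 at the highest (32.6 ± 9.06, SD, n = 8). All 8 Maintenance libraries lay below the lowest Saline library, and Maintenance 6, at 50.6 CPM, came closest to it. The share of all genes that separate in this way was not counted. The log2 fold change, Maintenance minus Saline, was -1.21 ± 0.16 (SE; 95% interval -1.53 to -0.89), or 2.31-fold lower. Leaving out Maintenance 6, 7 and 8 gave -1.27.

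Rbm3 was lower in Maintenance too, by a smaller factor. In Saline it was 68.4 CPM at the lowest, 80.6 at the median and 108.1 at the highest (82.0 ± 13.9, SD, n = 8). In Maintenance it was 34.9 CPM at the lowest, 51.9 at the median and 61.2 at the highest (49.9 ± 9.24, SD, n = 8). All 8 Maintenance libraries again lay below the lowest Saline library, here with Maintenance 3 closest and Maintenance 6 farthest away. The log2 fold change was -0.72 ± 0.13 (SE; 95% interval -0.98 to -0.45), or 1.64-fold lower. Without Maintenance 6, 7 and 8 it was -0.69.

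Both genes were chosen by their lower counts in this comparison, as seen in an earlier analysis of these libraries, so these values are a description and carry no test. Over all 16121 genes, 0.372% were called lower in Maintenance than in Saline (edgeR's quasi-likelihood test, Benjamini-Hochberg adjusted p under 0.05), and the median log2 fold change of all genes was 0.005. How many of all genes lay without overlap between groups was not counted, for this comparison or the others. In bulk libraries, fewer cells that express a gene and less RNA per cell cannot be told apart.

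Markers of other cells, and their fold changes in Maintenance against Saline, were as follows. All 6 erythrocyte markers had a negative fold change against Saline and none passed; their summed level was 165 to 699 CPM in Saline, 59.96 to 512 CPM in Maintenance and 86.1 to 773 CPM in Abstinence, with 6 of 8 Maintenance libraries below the Saline range; the hemoglobin genes had counts in every library. With that sum as a covariate, added after the data were seen, the log2 fold change was -1.09 ± 0.18 (SE) for Cirbp and -0.72 ± 0.15 for Rbm3. All 7 tested neutrophil markers had negative fold changes, with sums of 44.9 to 860 CPM in Saline and 4.26 to 172 CPM in Maintenance, and S100a8 and S100a9 alone of that list had counts in every library. Oligodendrocyte markers were positive for 8 of 10, with sums of 650 to 5396 CPM in Saline and 1266 to 5340 CPM in Maintenance, and none of either list passed. Neutrophil and oligodendrocyte sums as covariates gave -1.20 for Cirbp and -0.67 for Rbm3. Endothelial and astrocyte markers were each positive for 7 of 8, as were 5 of 6 pericyte markers. The pericyte sum lay outside the Saline range in 4 of 8 Maintenance libraries, on both sides of it (178 to 991 CPM against 238 to 807 CPM in Saline). Monocyte markers were negative for 6 of 8, border macrophage markers positive for 6 of 8 and neuron markers positive for 5 of 10. Lymphocyte markers were positive for 3 of 5 tested. Their sum lay outside the Saline range in 5 of 8 Maintenance libraries, mostly below it (23.9 to 66.4 CPM against 46.1 to 62.8 CPM in Saline). None of these passed, and their part in the result, like that of the microglial markers, was not tested. With groups centred, Pearson's r of log2 CPM with the log2 marker sums over 23 libraries is given as a description. Across all the marker lists it ran from -0.21 (astrocyte) to 0.32 (erythrocyte) for Cirbp and from -0.45 (astrocyte) to 0.14 (microglia) for Rbm3. With the log2 total count it was 0.15 for Cirbp and 0.44 for Rbm3. Of the choroid plexus and ependymal list 2 of 8 passed, Sostdc1 and Enpp2 (named after their values were seen). The sum of that list was 24.2 to 293 CPM in Saline, and 4 of 8 Maintenance libraries lay above that range. Its median was 85.1 CPM in Saline, 245 in Maintenance and 255 in Abstinence. Leaving out Maintenance 8 alone gave -1.21 for Cirbp and -0.73 for Rbm3, and the part of this list in the other libraries was not tested.

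**Figure D1:**
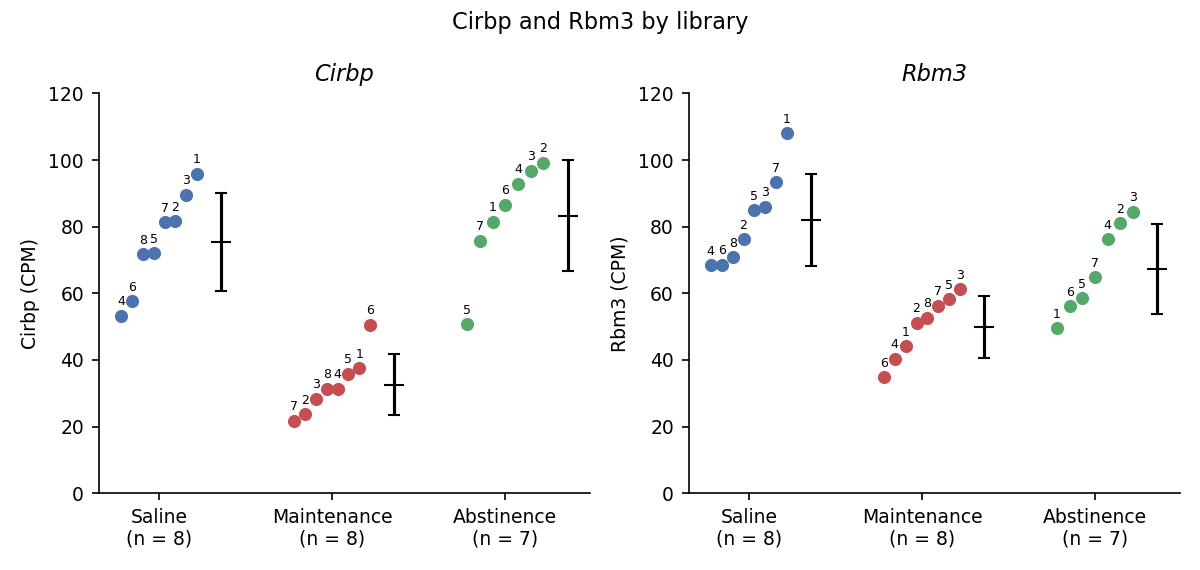
Level of Cirbp (left) and Rbm3 (right) in CPM for each library, by group; points are libraries with their replicate numbers, sorted by value, and bars are the mean ± SD. All 8 Maintenance libraries sit below the lowest Saline library for both genes, while Abstinence libraries reach 99.2 CPM for Cirbp and 84.5 CPM for Rbm3.

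After 21 days of abstinence Cirbp and Rbm3 lay differently against Saline, and neither passed. Cirbp was back within or above the Saline levels in 6 of 7 libraries, at 50.7 CPM at the lowest, 86.6 at the median and 99.2 at the highest (83.4 ± 16.6, SD, n = 7). Abstinence 5 was the low one, just under the lowest Saline library, and 2 libraries lay above the highest. The log2 fold change, Abstinence minus Saline, was 0.14 ± 0.16 (SE; 95% interval -0.19 to 0.47; edgeR adjusted p = 0.999). Rbm3 in Abstinence was 49.5 CPM at the lowest, 64.9 at the median and 84.5 at the highest (67.3 ± 13.5, SD, n = 7). Of the 7 libraries, 4 lay below the lowest Saline library and none above the highest. Its log2 fold change was -0.29 ± 0.13 (SE; 95% interval -0.56 to -0.01), with an unadjusted p of 0.0406 and an adjusted p of 0.999 in edgeR's fit, so it did not pass. Neither member was called, against 0.0186% of all genes, 3 in number, with 707 genes at an unadjusted p under 0.05. The intervals do not show that either gene equalled its Saline level. Under the alternatives the log2 fold change ran from 0.04 to 0.24 for Cirbp and from -0.37 to -0.22 for Rbm3, and the adjusted p from 0.504 to 1 and from 0.289 to 1.

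Markers of several other cells also had fold changes of mostly 1 sign in Abstinence against Saline, and none of them passed. Neuron markers were positive for 10 of 10 (sums of 22.5 to 113 CPM in Saline and 37.1 to 123 CPM in Abstinence) and oligodendrocyte markers for 8 of 10 (1839 to 4728 CPM in Abstinence). Neutrophil markers were negative for 7 of 7 (10.2 to 150 CPM in Abstinence) and monocyte markers for 7 of 8 (107 to 327 CPM in Saline and 106 to 201 CPM in Abstinence). Choroid plexus and ependymal markers were positive for 7 of 8 (24.2 to 293 CPM in Saline and 108 to 381 CPM in Abstinence). Endothelial markers were positive for 6 of 8 and border macrophage markers negative for 6 of 8. Astrocyte, pericyte and lymphocyte markers were more mixed, positive for 5 of 8, 4 of 6 and 2 of 5. With the oligodendrocyte and neutrophil sums as covariates the log2 fold change was 0.14 for Cirbp and -0.24 for Rbm3. The part of these markers in the ratio described below was not tested.

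Set against Maintenance, Cirbp in Abstinence was 2.56-fold higher (log2 fold change 1.36 ± 0.16, SE; 95% interval 1.02 to 1.69), with 7 of 7 libraries above the highest Maintenance library. The margin was thin for Abstinence 5, at 50.7 CPM against 50.6 CPM in Maintenance 6. Rbm3 was 1.35-fold higher (0.43 ± 0.13, SE; 95% interval 0.16 to 0.70), with 4 of 7 libraries above the highest Maintenance library. Abstinence 1, at 49.5 CPM, lay in the middle of the Maintenance range. These values are given without a test, since the Maintenance libraries entered the choice of the genes, and this comparison shares them with the one above. Of all genes, 0.397% were called higher in Abstinence than in Maintenance.

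**Figure D2:**
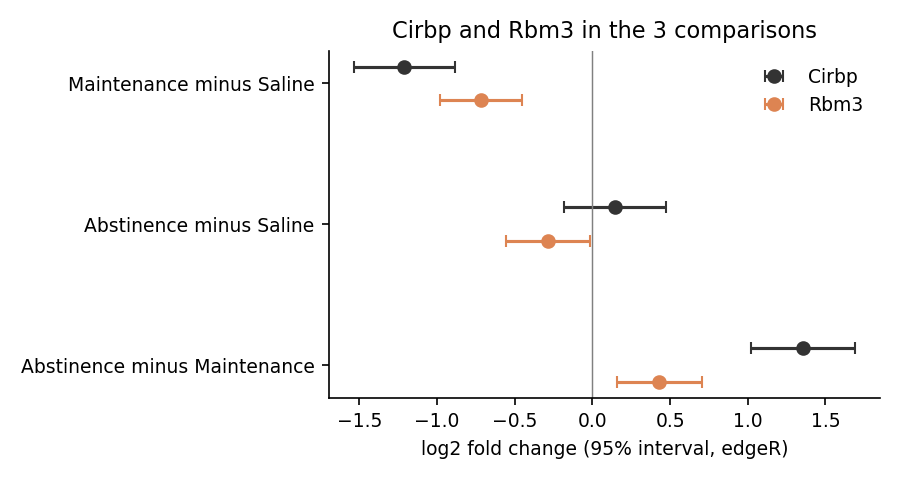
Log2 fold change of Cirbp (black) and Rbm3 (orange) in the 3 comparisons, as edgeR estimates with 95% intervals; the grey line marks no difference. Cirbp is at -1.21, 0.14 and 1.36 and Rbm3 at -0.72, -0.29 and 0.43, so the size is smaller for Rbm3 in both comparisons with Maintenance.

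The ratio of Cirbp to Rbm3 within a library does not depend on the scaling of the library, and it was higher in Abstinence than in Saline. As log2 of the ratio of counts, it was -0.36 at the lowest, -0.19 at the median and 0.10 at the highest in Saline (-0.13 ± 0.17, SD, n = 8). In Abstinence it was -0.21 at the lowest, 0.28 at the median and 0.72 at the highest (0.30 ± 0.30, SD, n = 7). Of the Abstinence libraries 6 of 7 lay above the highest Saline library, and Abstinence 5, also lowest for Cirbp, was the exception. The difference was 0.43 on the log2 scale, a ratio 1.35-fold higher in Abstinence (p = 0.00528, two-sided exact permutation test over 6435 regroupings). It was the single comparison of the ratio that was tested, and its Saline libraries also entered the choice of the genes. With each Saline or Abstinence library left out in turn the difference was 0.37 to 0.52 (exact permutation p 0.000666 to 0.0113). In the 17 libraries of the second deposited table it was 0.42 (exact permutation p = 0.0227). The ratio does not say which gene differed, and neither gene passed on its own. Since transcript length was not used, its absolute size is not a ratio of molecules.

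In Maintenance the ratio was the most spread of the groups. It ran from -1.37 through a median of -0.72 to 0.54 (-0.64 ± 0.61, SD, n = 8). Maintenance 7 was lowest, with 1866 counts of Cirbp and 4826 of Rbm3, and Maintenance 6 was highest, with 3771 and 2599. They are the libraries with the fewest genes detected, at opposite ends of the ratio; the part of detection in this was not tested. Of the 8 Maintenance libraries 6 lay below the lowest Saline library and 1 above the highest. The mean was 0.51 lower than in Saline, which is given without a test (difference -0.51).

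**Figure D3:**
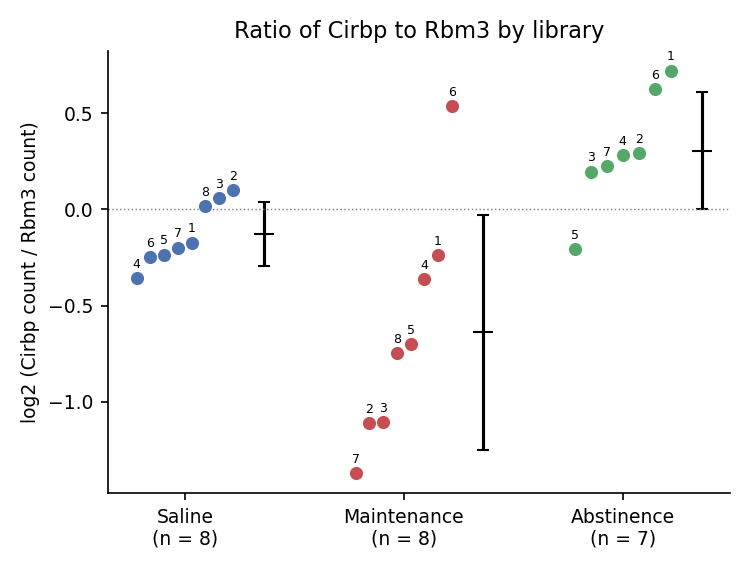
Log2 of the Cirbp count over the Rbm3 count in each library, by group; points carry replicate numbers and are sorted by value, bars are the mean ± SD, and the dotted line marks equal counts. Saline libraries span -0.36 to 0.10, 6 of 7 Abstinence libraries lie above them, and Maintenance libraries span -1.37 to 0.54.

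Within groups the relation of the genes had a positive sign in Saline and Abstinence and a negative sign in Maintenance. Across the 8 Saline libraries Pearson's r of log2 CPM was 0.83 (exact permutation p = 0.0110, adjusted over 12 relations 0.132) and Spearman's rho 0.88 (exact permutation p = 0.00724, adjusted 0.0869). Saline 1 was highest for both genes, and Saline 4 and Saline 6 were the lowest pair for both; without Saline 4 and 6, r was 0.73. Across the 8 Maintenance libraries r was -0.66 (exact permutation p = 0.0731, adjusted 0.439) and rho -0.55 (exact permutation p = 0.171, adjusted 0.486). This value rests on Maintenance 6 and 7: without Maintenance 6 r was -0.30, and without both it was -0.21. Across the 7 Abstinence libraries r was 0.53 (exact permutation p = 0.217, adjusted 0.671) and rho 0.68 (exact permutation p = 0.110, adjusted 0.486). Without Abstinence 2 and 5, the 2 libraries farthest from the median, r was 0.67 over only 5 libraries. With each group centred on its mean, r over all 23 libraries was 0.11 (permutation p = 0.632, adjusted 0.689) and rho 0.29 (permutation p = 0.202, adjusted 0.486), and without Maintenance 6 r was 0.41. None of these relations passed after adjustment.

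The difference of r between groups was tested after the values had been seen, over 3 differences. Maintenance minus Saline was -1.49 (p = 0.0121, adjusted 0.0364, exact permutation over 12870 regroupings). Abstinence minus Maintenance was 1.20 (exact permutation p = 0.0381, adjusted 0.0571) and Abstinence minus Saline -0.29 (exact permutation p = 0.202, adjusted 0.202). The first difference lost its call without Maintenance 6 (-1.15, adjusted p = 0.10) and without 8 other single libraries, named in the closing section.

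**Figure D4:**
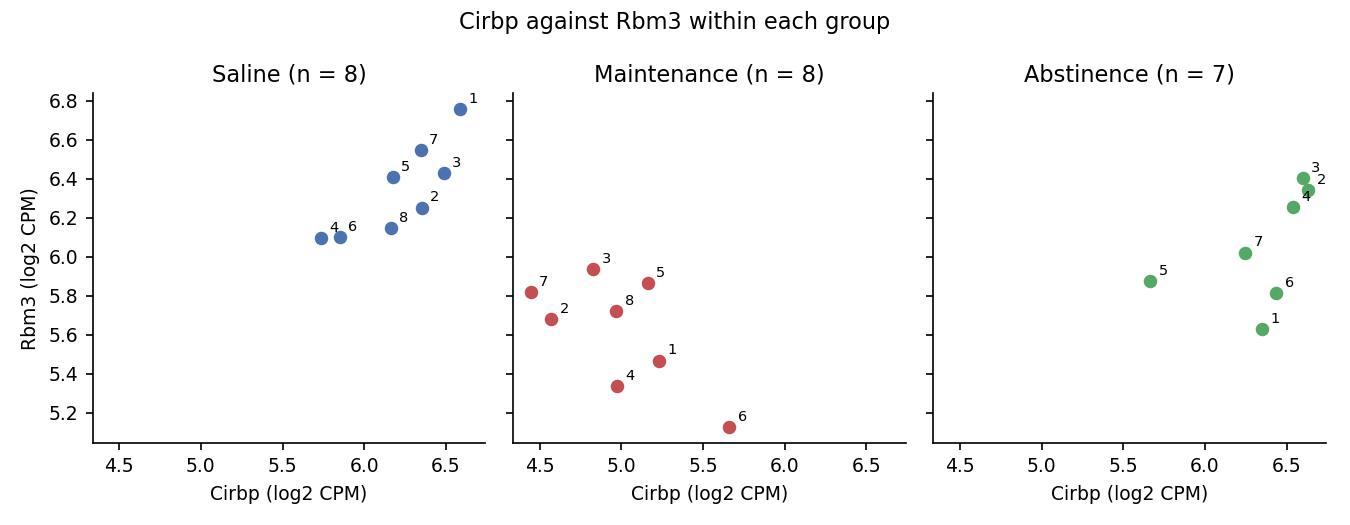
Rbm3 against Cirbp, both in log2 CPM, for the libraries of each group on shared axes; numbers are replicates. Saline libraries lie along a rising line (r = 0.83), Abstinence libraries more loosely (r = 0.53), and in Maintenance replicates 6 and 7 are at opposite corners (r = -0.66, and -0.21 without them).

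Over all 23 libraries, with groups centred, the members were compared with every other gene. Among 9458 genes whose log2 CPM averaged 2 or more, Rbm3 ranked 3392 by its r with Cirbp, and Cirbp ranked 3932 by its r with Rbm3. These ranks rest on Maintenance 6: without it they were 917 and 453, and r was 0.41 in place of 0.11. The values of r below are descriptions over the 23 libraries, which share depth and library quality across genes. Nearest to Cirbp were Nol11, a nucleolar factor of ribosome production (r = 0.73), Srr, serine racemase (0.73), Srp72, a subunit of the signal recognition particle (0.71), Smim7 (0.70) and Mettl18, a histidine methyltransferase (0.70). Most opposed to it were Rabep1, a RAB5 effector of endosome fusion (-0.78), the Wnt pathway transcription factor Tcf7l2 (-0.73) and the polyamine transporter Atp13a3 (-0.72). None of these 8 genes passed in any comparison between groups.

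Nearest to Rbm3 were Srsf6, an SR splicing factor (r = 0.77), Slamf9, a SLAM family receptor (0.76), Aldh18a1, which makes proline precursors (0.75), Phb2, a prohibitin of the inner mitochondrial membrane (0.74), and Agpat3, a phospholipid acyltransferase (0.74). Most opposed were the lectin receptor Clec4a1 (-0.72), Nckap1 of the actin-regulating WAVE complex (-0.71) and the mRNA export receptor Nxf1 (-0.65). Of these 8, 2 fell in Maintenance against Saline, where 0.707% of all genes were called. Slamf9 went from 101 ± 14.2 to 69.6 ± 6.83 CPM (SD, n = 8 each; log2 fold change -0.54, edgeR adjusted p = 0.00873). Aldh18a1 went from 30.7 ± 5.06 to 18.4 ± 4.69 CPM (-0.74, edgeR adjusted p = 0.0359). In Abstinence against Maintenance both rose, by 0.53 and 0.79 on the log2 scale (edgeR adjusted p = 0.0113 and 0.0247), and Nxf1 fell by 0.44 (edgeR adjusted p = 0.0334). The call of Slamf9 was lost in both comparisons without Maintenance 6, 7 and 8 together (edgeR adjusted p = 0.058 and 0.056), and against Maintenance also with 1 surrogate variable (0.056) and in the 17 libraries of the second table (0.060). Aldh18a1 lost its call against Saline without those 3 libraries (edgeR adjusted p = 0.064), with 1 surrogate variable (0.11) and with only the 2 groups in the fit (0.068), and without any 1 of Saline 1, 3, 4, 5 or 7 or Maintenance 1 or 4 (edgeR adjusted p up to 0.0895), and against Maintenance without Maintenance 4 or Abstinence 3, 4 or 7 (up to 0.0889) and in 2 of 12 other alternatives (up to 0.128). Nxf1 lost its call without Maintenance 4 or 6 or Abstinence 2, 3 or 7 (edgeR adjusted p up to 0.081) and in 3 of 12 other alternatives (up to 0.149).

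The closest relatives in structure did not pass, and for so short a list a count of 0 is near the background of all genes. Of the glycine-rich RNA-binding relatives, hnRNP and RBMX proteins with an RNA-recognition motif and a glycine-rich stretch, 9 were tested and 0 passed in any comparison, with 0.707% of genes called in Maintenance against Saline and 0.949% in Abstinence against Maintenance. Their median log2 fold change was -0.18 in Maintenance against Saline, with 8 of 9 negative and values between -0.32 and 0.16. Hnrnpa2b1, which sorts and splices mRNA, was at 324 ± 22.2 CPM in Saline and 362 ± 41.0 in Maintenance (0.16 ± 0.06, SE), and Hnrnpa1, a splicing repressor, at 64.6 ± 8.62 and 51.8 ± 8.89 CPM (-0.32 ± 0.10, SE; edgeR adjusted p = 0.145). In Abstinence against Saline their median was -0.08. Of the cold shock domain genes, named for a bacterial fold and unrelated in sequence to the members, 5 were tested and 0 passed, again near the background. Carhsp1, an mRNA-stabilising protein, was at 51.2 ± 20.4 CPM in Saline and 65.9 ± 20.1 in Maintenance.

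The regulators are kinases, splicing factors, transcription factors and receptors reported to act on the members. Of 12 tested regulators 1 rose in Maintenance against Saline, where 0.335% of all genes were called higher: Srpk2, a kinase of SR splicing factors, from 47.8 ± 4.73 to 63.8 ± 10.4 CPM (log2 fold change 0.42 ± 0.10, SE; edgeR adjusted p = 0.0496). This call was at the edge: it held when Saline 8, Maintenance 1, Maintenance 6, Abstinence 1 or Abstinence 5 was left out and was lost without any other of the 23 libraries (edgeR adjusted p up to 0.105) and in 8 of 12 other alternatives (up to 0.0882). Clk1, a kinase whose activity rises on cooling, was at 287 ± 42.8 CPM in Saline and 299 ± 43.5 in Maintenance (0.06 ± 0.10, SE), and its relative Clk4 at 63.4 ± 10.4 and 70.4 ± 8.83 CPM (0.15 ± 0.11, SE). Hnrnph1, which governs skipping of the poison exon of Rbm3, measured 41.5 ± 4.01, 35.4 ± 8.38 and 42.5 ± 4.19 CPM from Saline through Maintenance to Abstinence (-0.23 ± 0.12, SE, Maintenance minus Saline; edgeR adjusted p = 0.481). No regulator passed in Abstinence against either group.

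Downstream, 9 reported target RNAs of CIRBP or RBM3 were tested and 0 passed in any comparison. With 0.707%, 0.0186% and 0.949% of all genes called in Maintenance against Saline, Abstinence against Saline and Abstinence against Maintenance, a count of 0 is near the background for this list and for the short lists of receptors and transport genes that follow. Clock, a core activator of the circadian clock whose message CIRBP binds, was at 25.5 ± 7.79 CPM in Saline, 28.2 ± 8.63 in Maintenance and 25.5 ± 7.91 in Abstinence. Rtn3, a reticulon whose translation RBM3 raises, was at 305 ± 21.0, 321 ± 33.9 and 320 ± 8.02 CPM, and Hif1a, the hypoxia-inducible factor, at 202 ± 20.8, 203 ± 27.6 and 226 ± 24.9 CPM. Of 5 receptors of extracellular CIRBP 0 passed. Tlr4 was at 155 ± 20.5 CPM in Saline, 182 ± 24.6 in Maintenance and 169 ± 34.6 in Abstinence, and its co-receptor Cd14 at 1133 ± 160, 1242 ± 152 and 991 ± 36.4 CPM. Cd14 came nearest to a call in Abstinence against Maintenance (log2 fold change -0.33 ± 0.08, SE; edgeR adjusted p = 0.0509). Il6ra, the receptor subunit for interleukin 6, was at 266 ± 41.2, 258 ± 37.9 and 210 ± 26.7 CPM. Of 5 genes for nuclear transport and arginine methylation of CIRBP 0 passed, with the methyltransferase Prmt1 at 73.8 ± 3.99, 64.1 ± 7.10 and 68.3 ± 9.99 CPM and the import receptor Tnpo1 at 77.4 ± 13.3, 78.0 ± 18.1 and 82.3 ± 15.7 CPM.

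Heat-shock chaperones, which respond to temperature in the opposite sense, were the list with the most calls beside the members. In Maintenance against Saline 10 of 21 rose and 0 fell, against 0.335% of all genes called higher, and their median log2 fold change was 0.77. This list was drawn up with earlier results of these libraries known and is not independent evidence of its direction. Hspa8, the constitutive Hsp70, went from 1866 ± 193 to 3472 ± 405 CPM (log2 fold change 0.90 ± 0.09, SE; edgeR adjusted p = 1.10e-06). Ahsa2, an activator of the Hsp90 ATPase, rose by 1.43 ± 0.14, Chordc1, an Hsp90 co-chaperone, by 1.03 ± 0.12 and Dnaja1, a J-protein partner of Hsp70, by 0.98 ± 0.10 on the log2 scale (edgeR adjusted p = 1.37e-06, 1.29e-05 and 4.23e-06). Among the chaperones not called were Hspa1a (0.77 ± 0.25, SE), Dnajb1 (0.73 ± 0.22) and Bag3 (0.16 ± 0.17), with edgeR adjusted p = 0.154, 0.121 and 0.815. In Abstinence against Maintenance 6 of 21 were called lower and 0 higher, with 0.552% of all genes called lower and a list median of -0.36. Fold changes were negative for 15 of 21 and positive for 6. Among the 6 were Hspa1a (728 ± 164 to 1092 ± 513 CPM), Dnajb1 (1142 ± 326 to 1459 ± 574) and Bag3 (34.8 ± 7.90 to 55.7 ± 18.2). These 3, named after their values were seen, did not pass (edgeR adjusted p = 0.370, 0.635 and 0.0575). In that comparison Hspa8 fell by 1.00 on the log2 scale, Chordc1 fell by 0.72, and Ahsa2 went from 42.6 ± 8.40 to 18.8 ± 3.48 CPM (SD, n = 8 and 7).

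In Abstinence against Saline 2 of 21 chaperones were called higher, and the list median was 0.31. These 2 were the only genes called higher among all 16121, so the share of 0.0124% consists of them and is no separate background. The list was drawn up with earlier results of these libraries known. Dnaja1 was at 182 ± 42.1 CPM against 121 ± 12.5 (log2 fold change 0.59 ± 0.11, SE, edgeR adjusted p = 0.0433). Hsph1, an Hsp110 chaperone named after its values were seen, was at 67.9 ± 25.0 against 33.9 ± 2.37 CPM (1.00 ± 0.17, SE, edgeR adjusted p = 0.0196). Fold changes were positive for 18 of 21 chaperones and negative for 3. Hspa1a, Dnajb1 and Bag3 were at 1.35, 1.08 and 0.84 on the log2 scale and did not pass (edgeR adjusted p = 0.0824, 0.142 and 0.142). The call of Dnaja1 held only when Saline 7, Saline 8, Maintenance 6, Maintenance 8, Abstinence 4, Abstinence 5 or Abstinence 7 was left out and was lost without any other single library (edgeR adjusted p up to 0.196) and in 4 of 12 other alternatives (up to 0.0904). Across all the pathway lists 3 genes were called in this comparison, 1 without any of Saline 1, 2, 3, 5 or 6 or Abstinence 1, 2 or 6, and 7 without Abstinence 5.

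Library by library, no relation of a member with the chaperones passed. The 21 chaperones had a mean log2 CPM of 6.27 to 6.55 in Saline libraries, of 6.97 to 7.38 in Maintenance libraries and of 6.48 to 7.36 in Abstinence libraries, so Saline and Maintenance did not overlap. Its r with Cirbp was 0.16, -0.32 and 0.41 in the groups in that order (exact permutation p = 0.720, 0.444 and 0.391; rho 0.05, -0.14 and 0.29). Its r with Rbm3 was 0.26, -0.36 and -0.31 (exact permutation p = 0.519, 0.379 and 0.481; rho 0.21, -0.60 and -0.29). Adjusted over the 12 relations, p for r was 0.671 or 0.720 in all 6. With groups centred, r over 23 libraries was 0.15 for Cirbp and -0.20 for Rbm3 (permutation p = 0.560 and 0.429, adjusted 0.671 for both; rho 0.04 and -0.21). Without the 2 libraries farthest from the median, r was 0.26 and -0.45 for Cirbp and 0.22 and 0.17 for Rbm3 in Saline and Maintenance, and 0.27 and 0.08 with groups centred.

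**Figure D5:**
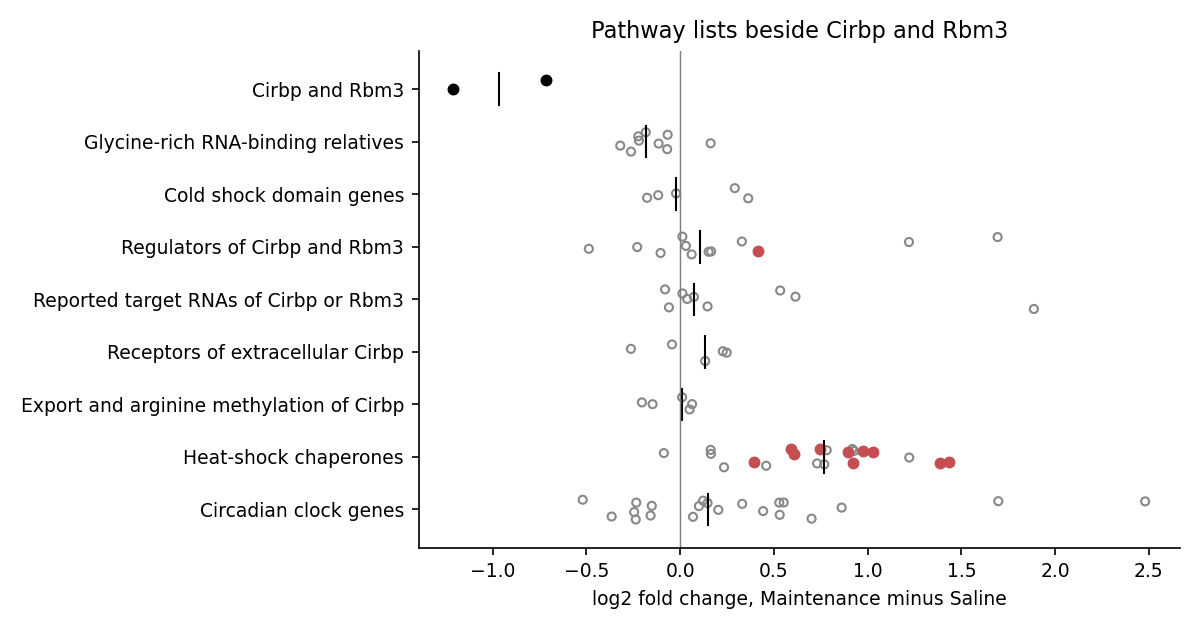
Log2 fold change, Maintenance minus Saline, of each tested member of the pathway lists (circles; filled red where the edgeR adjusted p was under 0.05), with Cirbp and Rbm3 as filled black points and list medians as black bars. The glycine-rich relatives lie between -0.32 and 0.16, and 10 of 21 heat-shock chaperones are filled, all to the right of 0.

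Of 21 circadian clock genes 0 passed in Maintenance against Saline, with 0.707% of all genes called. In Abstinence against Saline 1 fell, Nr1d1, the repressor REV-ERB alpha, from 41.5 ± 8.16 to 15.8 ± 4.89 CPM (log2 fold change -1.39 ± 0.21, SE, edgeR adjusted p = 0.00676). Nr1d1 was the only gene called lower among all 16121, so the share of 0.0062% is this gene itself. In Abstinence against Maintenance 4 fell, where 0.552% of all genes were called lower, with log2 fold changes of -1.24 for Nr1d1, -0.70 for its paralogue Nr1d2, -1.10 for the period gene Per3 and -0.62 for the PAR bZIP factor Tef (edgeR adjusted p = 0.00195, 0.0113, 0.00373 and 0.0463). The call of Tef was lost without any 1 of Saline 1 or 3, Maintenance 1, 6 or 7, or Abstinence 1, 2, 3, 4, 6 or 7 (edgeR adjusted p up to 0.115) and in 8 of 12 other alternatives (up to 0.177). Clock genes vary with the hour of isolation, which was not known, and Cirbp and Rbm3 are known to vary with the daily rhythm of body temperature; the part of the hour in the members' levels was not tested.

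The genes next to the members did not pass in any comparison, which for so few genes is near the background of all genes. Beside Cirbp these are Midn, 7622 bases before it (10.3 ± 2.97 CPM in Saline and 10.5 ± 3.81 in Maintenance), and Fam174c, 158 bases after it (listed as 1600002K03Rik; 3.49 ± 0.756 and 2.71 ± 0.653 CPM). Beside Rbm3 these are Wdr13 (16.0 ± 1.88 and 13.3 ± 5.90 CPM) and Tbc1d25 (9.47 ± 2.98 and 5.23 ± 2.98 CPM; log2 fold change -0.84 ± 0.52, SE, edgeR adjusted p = 0.582). The antisense gene Rbm3os overlaps 454 bases of Rbm3 on the other strand, and since the strand of counting was not given, reads of that stretch cannot be told apart. Rbm3os held 0 to 154 counts per library, against at least 2417 for Rbm3.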

How the data were processed

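Counts of reads per gene were deposited by the authors as whole numbers for 23 libraries made with a low-input kit. The submitters' processing notes name STAR 2.7.10a and StringTie 2.1.5, the build mm10 (GRCm38), Trim Galore 0.6.7 with cutadapt 1.18, and also DESeq2 1.38.3; their roles, order and settings, the annotation and the strand are not given in the sources used here. A second deposited table, called normalized, held the same counts for 17 of the libraries (0 of 611592 values differed) and served only to choose an alternative set of libraries.

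Genes were kept with filterByExpr (minimum count 10, minimum total 15), scaled with TMM factors and fitted over all 23 libraries by group (edgeR 4.0.16, quasi-likelihood, robust), with p adjusted by Benjamini-Hochberg over 16121 genes and a threshold of 0.05. CPM are TMM-scaled; log2 CPM used a prior count of 2. The fit and the exact permutation test of r within a group were tested on simulated data. The permutation tests of the ratio, of the difference of r and of the group-centred relations were not. Alternatives used other scalings, filters and designs, limma 3.58.1, DESeq2 1.42.0, sva 3.50.0 and left-out libraries. Closest libraries within a group differed by more than counting noise, so none was merged.

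The members and gene lists were chosen with earlier results of these data known. Genes were named by a rule: the members, their neighbours, per list up to 4 of smallest p that passed or else the 2 most abundant, the 5 most alike and 3 most opposed in r, and Clk1, Clk4, Hnrnph1, Clock and Tlr4; an item the rule named is not reported here. The intervals of fold changes come from the SE of edgeR's quasi-likelihood fit and include the spread between libraries. The percentages given for the lowest counts of the members cover counting error only.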

Additional observations from a re-analysis of the deposited data

Results flagged for a closer look

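The difference between groups in how Cirbp and Rbm3 vary together was picked out because its own test passed: r was 0.83 in Saline and -0.66 in Maintenance, a difference of -1.49 (exact permutation p = 0.0121, adjusted over 3 differences 0.0364). The test was added after the values of r had been seen. The adjusted p rose above the threshold without any 1 of Saline 3, 4, 6, 7 or 8 or Maintenance 1, 3, 6 or 7, 9 of 16 libraries, with values of 0.0531 to 0.10. Without Maintenance 6 and 7 together, the libraries with the fewest genes detected, it was -1.04 (exact permutation p = 0.0493, adjusted 0.148). The part of detection in the difference was not tested. In 12 checks of a group for 1 outlying library none was found; chance alone would flag about 1 in 20.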

How the results depend on the processing

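The log2 fold changes of Cirbp and Rbm3 kept their direction in all 3 comparisons under every alternative run, from -1.35 to -1.09 and from -0.76 to -0.65 in Maintenance against Saline. In that comparison, by which the genes were chosen, all 8 Maintenance libraries lay below the Saline range for both genes. Leaving libraries out could therefore hardly turn the sign. The same holds for Cirbp in Abstinence against Maintenance, with all 7 Abstinence libraries above the Maintenance range. The higher ratio of Cirbp to Rbm3 in Abstinence passed with each Saline or Abstinence library left out and in the 17 libraries of the second table. It also passed in the other alternatives run for it, which could barely alter it. Leaving out Maintenance libraries does not touch this comparison, scaling cancels in the ratio, and a pseudocount of 1 is small beside these counts. Members of the pathway lists that changed numbered 11 in Maintenance against Saline but 18 with DESeq2; 3 in Abstinence against Saline but 8 with DESeq2, 13 with limma voom and 1 to 7 with 1 library left out; and 10 in Abstinence against Maintenance but 17 with a filter of 1 CPM, 20 with DESeq2 and 16 with limma voom. The cause was not tested.

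No relation with the chaperone mean passed, and 5 of 8 reversed in sign with some single library left out. For Cirbp r ran from -0.188 to 0.542 in Saline, from -0.0513 to 0.664 in Abstinence and from -0.0726 to 0.237 with groups centred. For Rbm3 it ran from -0.614 to 0.127 in Abstinence and from -0.330 to 0.00618 with groups centred. Leaving out 1 library turned no sign for Cirbp or Rbm3 in Maintenance or for Rbm3 in Saline. Without the 2 farthest libraries r of Rbm3 was 0.175 in Maintenance and 0.0770 with groups centred. With 1 library left out the difference of r ran from -1.62 to -1.15 for Maintenance minus Saline (-1.04 without Maintenance 6 and 7) and from 0.86 to 1.40 for Abstinence minus Maintenance, which passed without Maintenance 5 (1.33) and Abstinence 5 (1.40). Relations in groups left with under 6 libraries were not counted among the alternatives.

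Replicate numbers did not pair the libraries (same-number correlations of -0.23 to 0.16, and 2 of 23 libraries closest to their own number). With the replicate number as a block the log2 fold change in Maintenance against Saline was -1.22 for Cirbp and -0.73 for Rbm3, and the lists held 10, 2 and 9 calls.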
